A study of Mus musculus with 13 samples.

Results

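Cytotoxic lymphocyte effector genes were followed in whole mouse liver as 10 genes of the 22048 in the deposited count table. They were taken by symbol and comprise the granzymes Gzma, Gzmb and Gzmk, the granule proteins Prf1 and Nkg7, the secreted and membrane-bound effectors Ifng and Fasl, the surface receptors Klrg1 and Cxcr6, and the transcription factor Tbx21. All 10 had a row in the table. RNA-seq libraries came from 6 control livers, 4 livers depleted of hepatic stellate cells and 3 livers taken 72 h after partial hepatectomy. Stellate cells are pericytes that line the liver sinusoids and store vitamin A, and in partial hepatectomy some lobes are cut away and the rest of the organ grows back. The controls are labelled as not depleted of these cells and were 3 males (replicates 1, 2 and 6) and 3 females. Depleted replicate 3 was male and the other 3 depleted livers were female. Hepatectomised replicates 1 and 2 were male and replicate 3 was female. Strain, genotype, age, the means of depletion and any sham operation are not given in the sources used here.

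Cytotoxic lymphocytes, mainly CD8 T cells and natural killer (NK) cells, kill target cells by releasing granules that hold perforin and granzymes. Perforin opens a pore in the target membrane and granzymes are serine proteases that enter through it and cleave proteins of the target. The same cells can also engage the death receptor Fas through Fas ligand and secrete interferon gamma, and the transcription factor T-bet (Tbx21) directs much of this programme. The liver is rich in resident NK cells, innate lymphoid cells of group 1 (ILC1) and T cells, many of which carry CXCR6.

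The promoters of the 5 granule protein genes are shown because these genes had 4 of the 5 highest per-length levels among the 10 in depleted livers, and because their transcripts rose together there. The sequences are from RefSeq on GRCm38.p6 and run 5′ to 3′ on the gene's strand, from 250 bases before to 50 bases after the annotated start. Capitals mark letters matching the T-box words AGGTGTGA or GGTGTG, the Runx word TGTGGT or the AP-1 word TGANTCA on either strand.
Gzma (chr13:113100932-113101231, minus strand): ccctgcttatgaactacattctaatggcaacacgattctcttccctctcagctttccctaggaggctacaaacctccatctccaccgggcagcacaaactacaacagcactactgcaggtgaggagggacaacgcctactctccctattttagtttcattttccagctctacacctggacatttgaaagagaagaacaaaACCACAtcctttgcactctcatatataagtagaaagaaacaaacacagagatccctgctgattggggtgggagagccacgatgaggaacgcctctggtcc
Gzmb (chr14:56262285-56262584, minus strand): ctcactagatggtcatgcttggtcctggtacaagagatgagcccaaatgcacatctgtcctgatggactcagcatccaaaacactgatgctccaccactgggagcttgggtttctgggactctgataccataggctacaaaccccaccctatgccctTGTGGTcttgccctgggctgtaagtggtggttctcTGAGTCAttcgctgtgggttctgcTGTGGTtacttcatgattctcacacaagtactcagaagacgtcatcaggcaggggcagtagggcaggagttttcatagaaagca
Gzmk (chr13:113180916-113181215, minus strand): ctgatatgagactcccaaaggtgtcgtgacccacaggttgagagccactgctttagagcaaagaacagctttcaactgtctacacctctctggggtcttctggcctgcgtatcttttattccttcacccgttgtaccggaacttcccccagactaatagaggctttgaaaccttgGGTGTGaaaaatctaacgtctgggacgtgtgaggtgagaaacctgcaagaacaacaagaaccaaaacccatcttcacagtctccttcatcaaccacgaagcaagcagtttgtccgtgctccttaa
Prf1 (chr10:61297586-61297885, plus strand): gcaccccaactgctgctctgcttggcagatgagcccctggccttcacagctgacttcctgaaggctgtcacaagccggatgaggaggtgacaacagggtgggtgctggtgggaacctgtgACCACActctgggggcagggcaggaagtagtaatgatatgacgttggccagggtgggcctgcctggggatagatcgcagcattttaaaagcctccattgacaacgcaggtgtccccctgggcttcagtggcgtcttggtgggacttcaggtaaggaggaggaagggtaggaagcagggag
Nkg7 (chr7:43436888-43437187, plus strand): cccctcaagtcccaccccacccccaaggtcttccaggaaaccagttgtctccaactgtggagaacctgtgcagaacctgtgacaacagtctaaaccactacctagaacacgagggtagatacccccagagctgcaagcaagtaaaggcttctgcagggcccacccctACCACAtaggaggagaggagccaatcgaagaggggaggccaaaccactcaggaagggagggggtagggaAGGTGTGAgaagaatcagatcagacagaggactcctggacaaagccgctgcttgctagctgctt

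Of the 10 genes, 9 had a promoter in the RefSeq table, and Klrg1 did not. The Runx word occurred in 5 of the 9 promoters (Gzma, Gzmb, Prf1, Nkg7 and Cxcr6), and in 16.8% of all 32817 promoters of the same length. Gzmb held it at 2 places, -93 and -34 from the start, and had the AP-1 word between them at -58, which 7.8% of all promoters hold. The shorter T-box word GGTGTG was found in Fasl, Gzmk and Nkg7, 3 of 9 against 19.1% of all promoters. The longer word AGGTGTGA, which contains the shorter one, was found in Nkg7 alone of the 9, at -14, and in 1.3% of all promoters. The NFAT core GGAAA, not capitalised above, occurred in 6 of the 9 and in 61.3% of all promoters. These matches describe letters in the window and say nothing of whether a factor was bound.

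Library totals ran from 35360991 to 51008737 counts, and 3 counts corresponded to 0.0588 to 0.0848 CPM, counts scaled to the size of the library. Levels below are CPM with TMM scaling (trimmed mean of M values), and differences are log2 fold changes with standard errors (SE) from edgeR's quasi-likelihood test, adjusted over the 13831 genes tested. The summed level of 8 stellate cell markers was 213 to 604 CPM in controls and 1.99 to 51.7 CPM in depleted livers, with the highest depleted value in replicate 4 and the other 3 at or below 4.56 CPM. Hepatocyte markers summed to between 66696 and 179302 CPM in all 13 livers, and 1 of the 7 was called lower in depleted livers, Cyp2e1, at 9304 to 13214 CPM in controls and 831 to 1340 CPM in depleted livers. Control replicate 6 stood apart in its leukocyte RNA, with 2.94 CPM of the pan-leukocyte gene Ptprc against 9.40 to 16.4 CPM in the other 5 controls. In whole-liver RNA, fewer cells of a type and less RNA per cell cannot be told apart, so a level here is that of the tissue.

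All 10 effector genes were higher in stellate cell-depleted livers than in controls, by log2 fold changes of 3.47 to 6.12 for the 9 genes with counts in both groups. In depleted livers 18.9% of all genes tested were called higher and 33.9% were called in either direction. For each of the 10 genes every depleted liver lay above every control, which held for 16.5% of all genes tested. The median log2 fold change of the 10 was 5.02, against -0.03 over all genes tested. The genes were taken by symbol, with no threshold on their values, though with earlier results of these data known. Gzmk, Ifng, Fasl and Klrg1 passed the filter on low counts only through the depleted livers, so for these a difference was built into being tested. The other 6 also passed on control and hepatectomised livers alone. The summed level of the 10 transcripts was 1.11 to 4.51 CPM in controls and 52.1 to 147 CPM in depleted livers.

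**Figure D1:**
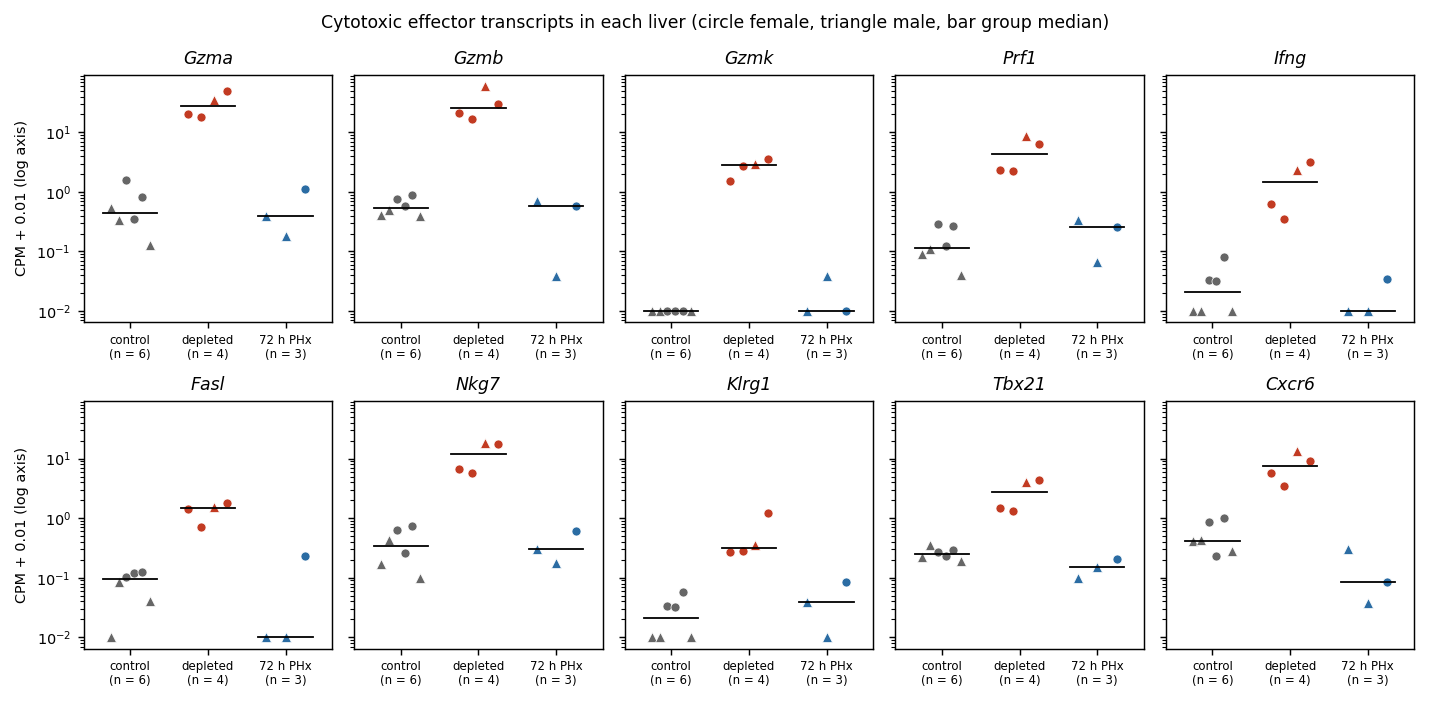
CPM of each gene in each liver on a log axis after adding 0.01, with circles for females, triangles for males and bars for group medians. In all 10 panels the 4 depleted livers lie above the 6 controls and the 3 hepatectomised livers, while the controls and the hepatectomised livers overlap.

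Gzma and Gzmb had the highest levels of the 10 in depleted livers per length of exon, as given further on. Gzma encodes granzyme A, a trypsin-like protease of T and NK cell granules (ENSMUSG00000023132, GRCm38 chr13:113093825-113100981, minus strand). Its level was 0.120, 0.436 and 1.61 CPM (lowest, median and highest) in the 6 controls and 20.5, 18.4, 34.9 and 49.0 CPM in depleted replicates 1 to 4. The lowest depleted liver was above the highest control, and the log2 fold change was 5.60 ± 0.55 (SE; edgeR adjusted p = 2.14e-05), a 49.3-fold ratio of group means. Gzmb encodes granzyme B, which cleaves after aspartate and triggers apoptosis (ENSMUSG00000015437, chr14:56258838-56262260, minus strand). It stood at 0.390, 0.528 and 0.889 CPM (lowest, median and highest) in controls and at 21.1, 16.9, 60.6 and 30.2 CPM in the 4 depleted livers. Controls were tightly grouped for Gzmb, and the log2 fold change was 5.77 ± 0.53 (SE; edgeR adjusted p = 1.36e-05).

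Gzmk was the only one of the 10 with no count in any control. It encodes granzyme K, a trypsin-like granzyme associated with particular T cell states (ENSMUSG00000042385, chr13:113171608-113225908, minus strand). The 4 depleted livers held 70, 120, 171 and 163 counts, or 1.5, 2.69, 2.99 and 3.63 CPM. Against a floor of 3 counts over the whole control group, this was at least 217-fold higher (edgeR adjusted p = 6.28e-05). The gene's span overlaps Esm1 on the opposite strand, with 0 shared exonic bases.

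Prf1 encodes perforin, the pore-forming protein of the granule (ENSMUSG00000037202, chr10:61297833-61304680, plus strand). Its level was 0.0300, 0.106 and 0.283 CPM (lowest, median and highest) in controls and 2.33, 2.22, 8.54 and 6.44 CPM in the 4 depleted livers. The log2 fold change was 5.04 ± 0.61 (SE; edgeR adjusted p = 6.5e-05). Nkg7 encodes a membrane protein of cytotoxic granules that takes part in their release (ENSMUSG00000004612, chr7:43437073-43438249, plus strand). It stood at 0.0900, 0.334 and 0.725 CPM (lowest, median and highest) in controls and at 6.75, 5.71, 18.1 and 17.6 CPM in depleted livers. Both genes divided the depleted livers alike, with replicates 3 and 4 more than 2 times replicates 1 and 2, and the log2 fold change of Nkg7 was 4.99 ± 0.55 (SE; edgeR adjusted p = 3.62e-05).

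The cytokine and the death ligand were near the detection limit in controls. Ifng encodes interferon gamma, which activates macrophages and induces antigen presentation (ENSMUSG00000055170, chr10:118441046-118445892, plus strand). Controls held 0, 0, 1, 1, 3 and 0 counts in replicates 1 to 6, and depleted livers 29, 15, 134 and 145 counts. In CPM the depleted values were 0.621, 0.336, 2.34 and 3.23, and the log2 fold change was 6.12 ± 0.87 (SE; edgeR adjusted p = 0.000194). Ifng had the largest ratio of highest to lowest depleted liver of the 10 genes, at 9.61. The standard deviation relative to the mean was larger for Klrg1, at 88.0% against 84.9% for Ifng. A same-strand gene model that is not in the table, Gm49751, shares 336 exonic bases with Ifng.

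Fasl encodes Fas ligand, which triggers apoptosis through Fas on the target cell (ENSMUSG00000000817, chr1:161780689-161788495, minus strand). Controls held 0 to 5 counts and depleted livers 65, 31, 87 and 82. The depleted livers stood at 1.39, 0.694, 1.52 and 1.83 CPM against a control median of 0.0843 CPM and a highest control of 0.117 CPM. The log2 fold change was 4.15 ± 0.69 (SE; edgeR adjusted p = 0.000578).

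Tbx21 showed the smallest difference of the 10. It encodes T-bet (ENSMUSG00000001444, chr11:97098071-97115331, minus strand), and its level was 0.180, 0.242 and 0.346 CPM (lowest, median and highest) in controls. Depleted livers had 1.5, 1.30, 4.03 and 4.34 CPM. All 4 were above the controls, and the log2 fold change was 3.47 ± 0.42 (SE; edgeR adjusted p = 5.96e-05), an 11.1-fold ratio of group means.

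Of the surface receptors, Cxcr6 had the higher level per length in depleted livers. It encodes the receptor of the chemokine CXCL16 and is carried by liver-resident lymphocytes (ENSMUSG00000048521, chr9:123806475-123811760, plus strand, within the span of Fyco1 on the opposite strand with 0 shared exonic bases). Controls had 0.225, 0.411 and 0.983 CPM (lowest, median and highest) and depleted livers 5.72, 3.52, 13.2 and 9.22 CPM. The groups did not overlap, and the log2 fold change was 3.90 ± 0.54 (SE; edgeR adjusted p = 0.000173). Klrg1 encodes an inhibitory receptor of differentiated effector T and NK cells that binds cadherins (ENSMUSG00000030114, chr6:122270596-122282882, minus strand). It held 0 to 2 counts in each control and 12, 12, 20 and 54 counts in the depleted livers. The depleted livers stood at 0.257, 0.269, 0.349 and 1.20 CPM, so that replicate 4 was apart from the other 3, and the log2 fold change was 4.63 ± 0.75 (SE; edgeR adjusted p = 0.000475). Replicate 4 was also the depleted liver with the most stellate marker RNA, and the part of this in the Klrg1 value was not tested.

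**Figure D2:**
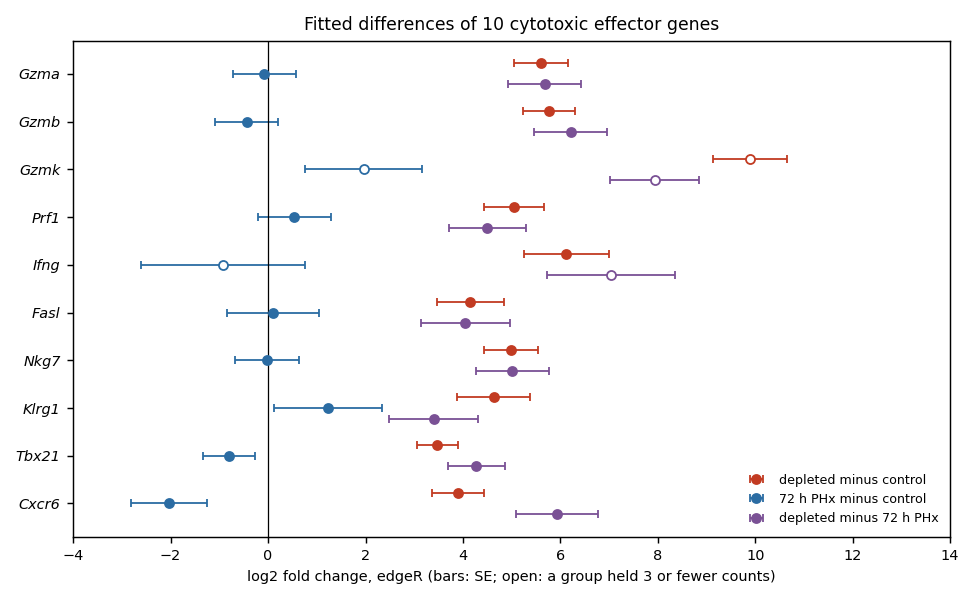
Fitted log2 fold changes (x axis) of the 10 genes for the 3 comparisons, with SE as bars and open symbols where a group held 3 or fewer counts. The comparisons of depleted livers with controls and with hepatectomised livers lie above 3 for all 10 genes, and the comparison of hepatectomised livers with controls lies around 0, from -2.03 for Cxcr6 to 1.96 for Gzmk, which held 1 count against 0.

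Several log2 fold changes were smaller without depleted replicate 3, the only male of its group. They were then 4.92 for Gzma, 4.96 for Gzmb, 4.21 for Prf1, 5.09 for Ifng, 3.26 for Fasl and 4.22 for Nkg7. The remaining depleted livers were all female, and female controls had higher means than male controls, 0.921 against 0.326 CPM for Gzma and 0.108 against 0.0347 CPM for Fasl, so the part of this library's own level and that of sex cannot be told apart. Without replicate 4, Ifng was 5.42 and Klrg1 3.98, and without control replicate 5, which held 3 of the 5 control counts, Ifng was 6.98. All 10 genes were called higher whichever single library was left out. They were also all called in females alone, 3 livers against 3, where Ifng was 5.06 and Prf1 4.05.

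The 10 genes differed among themselves in level when set on a per-length scale, CPM per kb of exon, in the depleted livers. Gzma led with 35 ± 16.2 CPM per kb (SD, n = 4), then came Gzmb with 22.7 ± 13.9 and Nkg7 with 13.7 ± 7.65. Cxcr6 had 4.18 ± 2.24 CPM per kb, Prf1 2.38 ± 1.52 and Gzmk 1.94 ± 0.643. Below them were Ifng with 1.35 ± 1.1, Tbx21 with 1.12 ± 0.650, Fasl with 0.701 ± 0.247 and Klrg1 with 0.367 ± 0.323 CPM per kb. The ranges of every pair of neighbours in this order overlapped. Within single livers the order of neighbours was the same in all 4 for Gzmb above Nkg7, Nkg7 above Cxcr6, Cxcr6 above Prf1 and Fasl above Klrg1, and in 2 of 4 for Ifng above Tbx21. In controls the order by mean began with Gzma at 0.710 ± 0.611 (SD, n = 6), Nkg7 at 0.428 ± 0.290 and Gzmb at 0.411 ± 0.142 CPM per kb, and Nkg7 was above Gzmb in 3 of 6 livers. Gzma and Gzmb stood above Prf1 per length in all 13 livers but 1, hepatectomised replicate 2, where Gzmb was below. Tbx21 was at rank 5 in controls, with 0.101 ± 0.0235 CPM per kb, and at rank 8 in depleted livers.

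**Figure D3:**
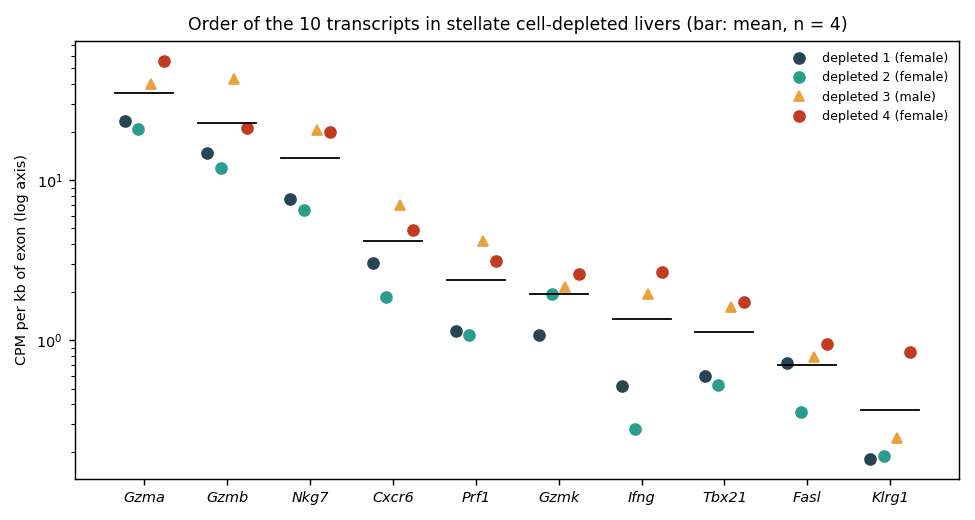
CPM per kb of exon (log axis) of the 10 transcripts in each of the 4 depleted livers, ordered by mean (bars). Means run from 35 for Gzma to 0.367 for Klrg1, and replicates 3 and 4 lie above replicates 1 and 2 for every gene.

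The depleted livers themselves differed in a shared way. For all 10 genes replicates 3 and 4 were both above replicates 1 and 2, an order that 32% of all genes tested showed. Replicate 3 was highest for Gzmb, Prf1, Nkg7 and Cxcr6, and replicate 4 for the other 6. Replicate 2 was lowest for 8 genes, and replicate 1 for Gzmk and Klrg1. The ratio of highest to lowest depleted liver was smallest for Gzmk, at 2.42. Gzmb was 2.01 times as high in replicate 3 as in replicate 4, whereas Klrg1 in replicate 3 was 0.290 times its level in replicate 4. Of 12 T cell genes 11 showed the same order, and so did 7 of the 12 tested genes of NK cells and innate lymphoid cells of group 1 (ILC1), Klrc1 among them at 1.44, 1.57, 2.95 and 4.10 CPM in replicates 1 to 4. The NK receptor genes Ncr1 and Klrb1c, named here after their values were seen, had the opposite order, and 3 genes of that list had neither. Ncr1 stood at 1.18 and 0.896 CPM in replicates 1 and 2 and at 0.559 and 0.601 CPM in replicates 3 and 4. Klrb1c was at 2.27 and 2.17 CPM in the first pair and 0.978 and 1.52 CPM in the second.

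Deviations from the group means were compared over the 13 libraries as a description of likeness, in which the 4 depleted livers and library depth are shared by all genes. Among the 10, Prf1 and Nkg7 were most alike (Pearson r = 0.892 of log2 CPM deviations), then Cxcr6 and Prf1 (0.869) and Ifng and Tbx21 (0.859). Gzmk had the lowest median r with the others, at 0.114, and since it had 0 counts in all controls its deviations came from the other livers. Of all other genes tested, the one most like Nkg7 was Cd74, the invariant chain of MHC class II (0.988), and for Ifng it was Ly6i (0.979). Prf1 was most like Npc2 (0.964), and the T cell gene Cd3d (0.945) was among its 3 closest, and Gzma was most like the NK receptor gene Klrc2 (0.920). Klrg1 was most like Igfbp3 (0.946), Gzmb like Rtl5 (0.933), Fasl like Fam198a (0.939), Tbx21 like Psap (0.930), Cxcr6 like Cnnm4 (0.909) and Gzmk like Coa7 (0.893). With group means removed, likeness does not mean a shared group difference. Means in controls and depleted livers were 26.4 and 0.397 CPM for Igfbp3, 3.38 and 0.858 for Fam198a, and 20.6 and 17.9 for Coa7. The closest genes of the other effectors had higher means in depleted livers.

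At 72 h after partial hepatectomy none of the 10 genes was called different from control by edgeR, where 8.42% of all genes tested were called in either direction. At an unadjusted p under 0.05 there was 1, Cxcr6, and DESeq2 called 1, also Cxcr6. All 10 genes had hepatectomised livers within or overlapping the control range, while 7.41% of all genes tested had every hepatectomised liver above and 6.25% every one below the controls. The summed level of the 10 transcripts was 0.618 to 3.12 CPM, and their median log2 fold change was -0.05, against -0.02 over all genes tested. The depth sets a limit here, since Gzmk, Ifng, Fasl and Klrg1 held 9 counts or fewer over the 3 hepatectomised livers together.

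Cxcr6 was the gene that stood lowest after hepatectomy. The 3 livers had 0.294, 0.0281 and 0.0748 CPM against 0.225 to 0.983 CPM in controls, so the highest hepatectomised liver lay within the control range. The log2 fold change was -2.03 ± 0.77 (SE; edgeR adjusted p = 0.128), and that of DESeq2 was -2.04 (adjusted p = 0.0317). Over 24 other settings and left-out libraries the Cxcr6 value lay between -3.26 and -1.58, with adjusted p from 0.0317 to 0.365. Tbx21 was at 0.0882, 0.140 and 0.200 CPM, with 2 of the 3 livers below the lowest control, and it differed by -0.80 ± 0.53 on the log2 scale (SE; edgeR adjusted p = 0.383).

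For the granule genes no difference beyond the spread between livers was detected after hepatectomy. Gzma had 0.382, 0.168 and 1.10 CPM in the 3 hepatectomised livers, with a log2 fold change of -0.08 whose 95% interval (1.96 SE on each side) ran from -1.34 to 1.19. Gzmb had 0.705, 0.0281 and 0.574 CPM and an interval of -1.71 to 0.82. The interval was -0.91 to 1.99 for Prf1 and -1.30 to 1.25 for Nkg7, so rises of the size seen in depleted livers lay outside all 4 intervals. Fasl had 0, 0 and 9 counts, all of them in the female replicate 3, and its fitted change of 0.10 turned to -4.35 without that liver. Ifng had 1 count against 5 in controls, a ratio of 0.439 with an exact 95% counting interval of 0.00927 to 3.92. Klrg1 had 1, 0 and 3 counts and a fitted difference of 1.23 ± 1.11 on the log2 scale (SE; edgeR adjusted p = 0.537), and Gzmk had 1 count in total.

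All 10 genes were also higher in the depleted than in the hepatectomised livers, without overlap. Of all genes tested, 13.3% were called higher in this comparison, 23.4% in either direction, and 18.1% had every depleted liver above every hepatectomised one. Gzmk, Ifng, Fasl and Klrg1 passed the filter only through the depleted livers, so these counts favour them. The other 6 genes were all called higher, without overlap. The comparison shares the depleted livers with the one against controls, so its calls are not a second line of evidence. Log2 fold changes were 5.67 ± 0.76 (SE) for Gzma, 6.21 ± 0.75 for Gzmb, 4.50 ± 0.80 for Prf1 and 5.01 ± 0.75 for Nkg7. Cxcr6 showed 5.93 ± 0.85, Tbx21 4.28 ± 0.58, Fasl 4.05 ± 0.91 and Klrg1 3.40 ± 0.92, and edgeR adjusted p-values of the 10 ran from 0.000219 to 0.0182. Gzmk had 524 counts against 1, a ratio of 297 (exact 95% counting interval 53.1 to 11762), and Ifng 323 against 1, a ratio of 183 (32.7 to 7258).

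Some of these calls changed when single livers were left out. Without depleted replicate 3, Ifng at 5.58 (edgeR adjusted p = 0.111) and Klrg1 at 2.72 (adjusted p = 0.178) were no longer called. The call of Klrg1 was also lost without hepatectomised replicate 2 (edgeR adjusted p = 0.0544) or 3 (0.0730). Fasl rose to 8.47 without hepatectomised replicate 3, the only one with Fasl counts. That replicate also held the single Ifng count, and Ifng was 9.04 without it. Cxcr6 was 7.16 without hepatectomised replicate 1.

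Sex was examined in the controls, 3 males against 3 females. Of the 5 genes that passed the filter there, 0 were called by edgeR, 0 at an unadjusted p under 0.05 and 0 by DESeq2, against 0.738% of all genes tested that edgeR called. Mean levels were higher in females for 9 of the 10 genes, Gzma for example at 0.921 against 0.326 CPM in males (edgeR adjusted p = 0.401). Gzmk, the remaining gene, had 0 counts in both sexes. The male means include control replicate 6, which stood apart with little leukocyte RNA. The share of all genes with a higher female mean was not counted.

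Markers of the cells that could carry these transcripts moved with them. T cell genes were called higher in depleted livers for 12 of 12 tested, with a median log2 fold change of 4.50, and their summed level was 4.0 to 7.25 CPM in controls and 59.6 to 134 CPM in depleted livers. Cd8b1 held 2 to 8 counts per control and 1 to 4 per hepatectomised liver, and Cd5 0 to 7 and 1 to 7. Genes this scarce elsewhere were tested through the depleted livers, so for them a difference was favoured in advance. The coreceptor genes Cd8a and Cd8b1 changed by 6.36 ± 0.37 (SE) and 6.47, and Cd4 by 2.38 ± 0.32 (SE). Among 12 genes of NK cells and ILC1 that were tested, 11 were called higher, with a median of 2.54. The NK receptor genes Ncr1 and Klrb1c changed by 1.79 ± 0.47 and 1.72 ± 0.43 (SE), beside 3.47 for Tbx21, the lowest of the effectors, and the difference between them was not tested. The call was lost for Ncr1 with the replicate number as a block (edgeR adjusted p = 0.0980) and for Klrb1c in females only (0.0838). The summed NK and ILC1 list, of which Fcer1g and Tyrobp are also myeloid genes, was 8.07 to 33.0 CPM in controls and 117 to 294 CPM in depleted livers.

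Genes of other leukocytes were called too. All 6 pan-leukocyte genes were higher, with a median of 3.01, as were 7 of 7 B and plasma cell genes (median 2.47), 8 of 8 neutrophil genes (6.49), 5 of 5 monocyte genes (4.86) and 4 of 4 regulatory T cell genes (2.7). Without depleted replicate 3 the last count was 2, with Foxp3 (edgeR adjusted p = 0.105) and Ikzf2 (0.0756) lost, and Foxp3 was lost in 11 of 23 alternatives. Kupffer cell genes were mixed: Marco and Timd4 of 5 were called higher, by 4.73 and 2.13, whereas Clec4f, not called, was 20.3 to 165 CPM in controls and 0.236, 2.17, 3.44 and 69.5 CPM in depleted replicates 1 to 4. Timd4 was not called with the replicate number as a block (edgeR adjusted p = 0.0505) or without depleted replicate 3 (0.110). Of 3 plasmacytoid dendritic cell genes tested, Ccr9 was called higher (3.18) and Siglech lower (-2.63), the latter not without depleted replicate 3 (edgeR adjusted p = 0.0581). Mast cells and basophils can also hold granzyme B, and of 7 of their genes only Kit passed the filter, at 0.66 and not called. Cpa3 held 0 to 7 counts per library and Mcpt8 0 to 2, except for 48 in depleted replicate 4. In hepatectomised livers edgeR called 0 of 12 T cell, 0 of 12 NK and ILC1 and 0 of 6 pan-leukocyte genes (1, 0 and 1 at an unadjusted p under 0.05, and 1, 0 and 1 by DESeq2), while 5 of 8 neutrophil and 2 of 5 monocyte genes were called higher and 2 of 7 B and plasma cell genes lower, Ms4a1 by -1.51 and Pax5 by -2.49 (list median -0.80). In females only, with 1 hepatectomised liver, 2 neutrophil and 0 monocyte genes were called higher, and over all alternatives the B and plasma cell genes called lower ran from 0 to 4, with Ms4a1 lost in 15 of 24 and Pax5 in 1. Of the gamma delta and innate-like T cell list 2 genes were tested, and both were called higher in depleted livers, the receptor gene Cd160 (3.32 ± 0.64, SE) and the transcription factor gene Zbtb16 (1.94 ± 0.65, SE). Zbtb16 was also called after hepatectomy (2.6 ± 0.68, SE), at 1.92 to 22.5 CPM in controls, 21.8, 39.0, 52.6 and 3.30 CPM in depleted replicates 1 to 4 and 40.9 to 58.4 CPM in hepatectomised livers, but its calls were lost in 12 and 11 of 24 alternatives. Their part in the effector gene differences was not tested beyond the ratios that follow.

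**Figure D4:**
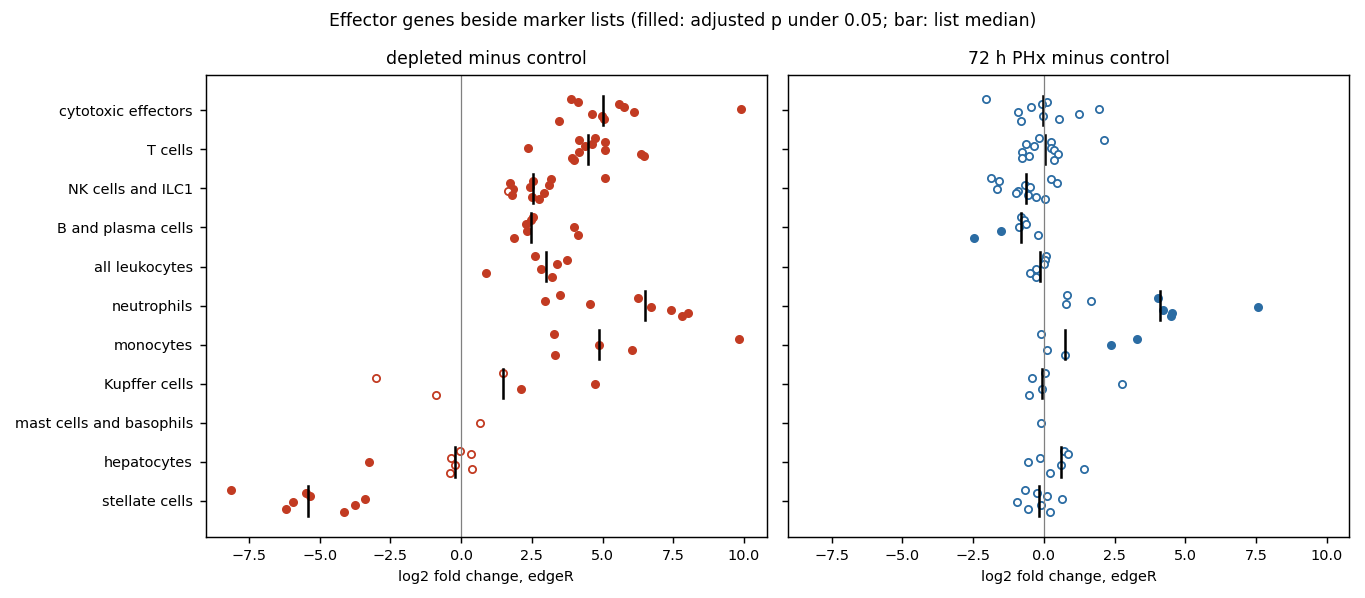
Log2 fold changes (x axis) of the effector genes and of 10 marker lists for depleted against control livers and for hepatectomised against control livers, each point a gene, filled where called, with list medians as bars. Effector, T cell, neutrophil and monocyte genes lie to the right in depleted livers and stellate cell genes to the left, while in hepatectomised livers 5 of 8 neutrophil genes are filled and no effector gene is.

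Each effector was also set against the summed T cell genes of the same liver. Gzmb was 8.18 to 14 CPM per 100 CPM of the 12 T cell genes in controls and 22.5 to 47.2 in depleted livers. Gzma was 2.52 to 25.7 in controls and 27.1 to 36.6 in depleted livers on that scale, and Gzmk, which passed the filter only through the depleted livers, 0 against 2.32 to 4.51. These 3 granzymes had all depleted livers above all controls relative to the 12 T cell genes, which held for 0.398% of all genes tested. Cd4 was a larger part of that sum in controls, at 18.9 to 49.1 per 100 CPM, than in depleted livers, at 6.85 to 9.32. Relative to Cd3e alone Gzmb overlapped, at 125 to 312.5 CPM per 100 CPM in controls and 206 to 553 in depleted livers. Tbx21 was below all controls on the same scale, at 2.18 to 3.24 against 3.77 to 6.86, as were 88.9% of all genes tested. The other 6 overlapped between the groups, Prf1 for example at 0.629 to 4.53 in controls and 3.72 to 6.64 in depleted livers, and Cxcr6 at 5.62 to 13.6 and 5.90 to 10.3.

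The T cell genes themselves had other proportions in depleted livers. Cd8a was 1.17 to 6.18 CPM per 100 CPM of the list in controls and 12.9 to 18.6 in depleted livers, without overlap, and Cd4 was 18.9 to 49.1 in controls and 6.85 to 9.32 in depleted livers. Both genes are themselves in the list. Relative to Cd3e alone Cd8a overlapped, at 16.7 to 137.5 in controls and 118 to 230 in depleted livers. Cd4 stayed below all controls relative to Cd3e, as did 91% of all genes tested. Relative to the 12 T cell genes Klrb1c was 3.77 to 16.6 in controls and 0.761 to 3.71 in depleted livers. On that scale Cd4 and Klrb1c were below all controls, as were 88.9% of all genes tested. Ncr1, at 1.51 to 5.88 and 0.435 to 1.93, and Eomes, at 0 to 1.17 and 1.02 to 2.59, overlapped between the groups. The outcome depended on the denominator: relative to Ptprc, 6 of the 10 effectors had all depleted livers above all controls, against 0.925% of all genes tested. Relative to Cd3e alone 2 were above and 2 below, against 0.224% and 91% of all genes. Relative to the 6 pan-leukocyte genes all 10 were above, against 4.33%. Lcp1 made up most of that sum in each control, at 115 to 153 CPM against sums of 128 to 215 CPM. In depleted livers Lcp1 was 201 to 284 CPM against sums of 498 to 832 CPM. It thus rose less than the sum, and this tally depends largely on that 1 gene. Since Gzmk, Ifng, Fasl and Klrg1 passed the filter only through the depleted livers, these tallies favour them, and of the other 6 genes 2 were above relative to the T cell genes, 4 relative to Ptprc, 1 relative to Cd3e and 6 relative to the pan-leukocyte genes. These ratios are of tissue RNA, not of RNA in a cell.

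**Figure D5:**
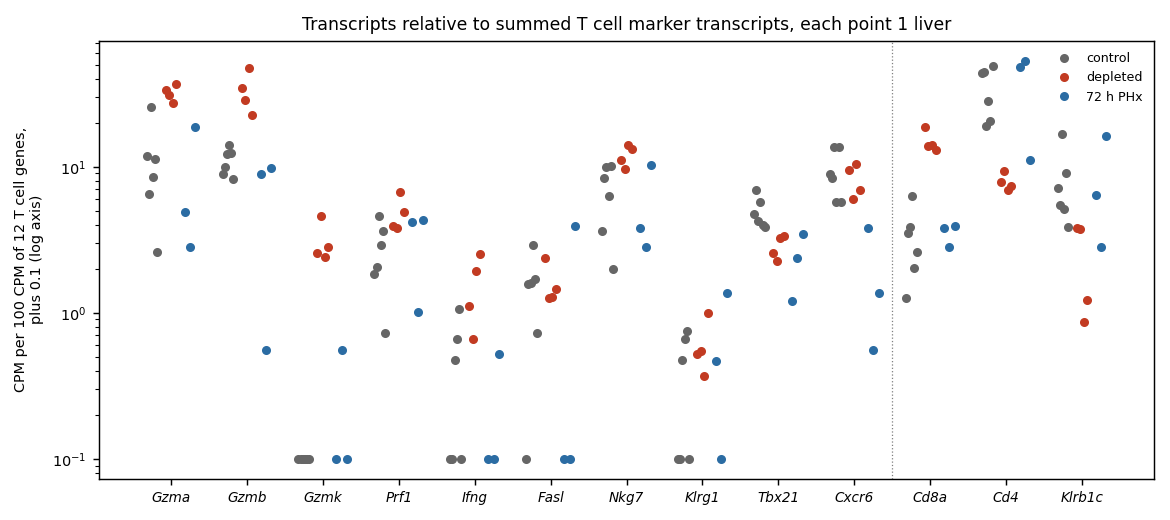
CPM per 100 CPM of 12 T cell genes plus 0.1 (log axis), each point a liver, for the 10 effector genes and, right of the dotted line, Cd8a, Cd4 and Klrb1c. Depleted livers lie above all controls for Gzma, Gzmb, Gzmk and Cd8a and below them for Tbx21, Cd4 and Klrb1c, as for 88.9% of all genes tested.

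Of 11 further granule proteases and cargo genes with a row, 4 passed the filter and all 4 were called higher in depleted livers. They were Cst7, which encodes the cathepsin inhibitor cystatin F, at 4.86 ± 0.47 (SE), Ctsw at 3.58 ± 0.55, the granule proteoglycan gene Srgn at 3.01 ± 0.32, and Ctsc, whose product activates granzymes, at 1.79 ± 0.33. Cst7 held 1 to 7 counts per control and 1 to 5 per hepatectomised liver. It was tested through the depleted livers, with 79 to 289 counts, so a difference was favoured in advance. The granzymes outside the 10 were scarce: Gzmc held 8, 0, 11 and 18 counts in the depleted livers and 0 in controls, Gzmd, Gzmg and Gzmn held 0 in all 13 libraries, and Gzmm held 4 to 10 counts in controls and 7 to 13 in depleted livers. Of 9 genes of granule exocytosis, 3 were called higher, namely Unc13d (3.32 ± 0.30), which primes granules, Stx11 (2.85 ± 0.42) and Rab27a (1.84 ± 0.30). The median of the 9 was 0.28, and Lyst, Ap3b1, Vamp8, Snap23, Stxbp2 and Lamp1 were not called. Of 5 serpins tested, 4 were higher, Serpinb9b by 4.13, Serpinb6b by 3.47 and, with smaller changes, Serpinb9, the mouse inhibitor of granzyme B, by 1.24 ± 0.23 and Serpinb6a by 1.23.

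On the side of the receptors and targets, Fas was 9.94 to 17.3 CPM in controls, 23.5 to 31.9 CPM in depleted livers and 26.2 to 50.1 CPM in hepatectomised livers. Fas, the receptor of Fasl, was called higher in both conditions, by 1.06 ± 0.21 (SE; edgeR adjusted p = 0.00210) and 1.36 ± 0.23 (SE; adjusted p = 0.00476), which share the controls. Of 12 genes of death ligands, receptors and the extrinsic apoptosis pathway, 6 were called higher in depleted livers, among them Ltb (3.85), Tnf (3.76) and Tnfsf10, which encodes TRAIL (2.0). After hepatectomy 2 were higher, Fas and Tnfrsf1a, and 2 lower, Tnfsf10 at -2.11 and Bid at -0.84. None of these 4 was called in females only, with 1 hepatectomised liver, where Fas was 0.88 (edgeR adjusted p = 0.347). Tnfrsf1a was also lost with the replicate number as a block (0.0696), Tnfsf10 without hepatectomised replicate 2 (0.0825) or 3 (0.0831), and Bid in 9 of 24 alternatives.

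Genes of the interferon gamma receptor and its signal were called higher in depleted livers for 7 of 8 tested, and Jak1 was not called. In females only 5 were called, and Jak2 and Ifngr2 were lost both there and without depleted replicate 3 (Jak2 at an edgeR adjusted p of 0.219 and 0.123). The receptor gene Ifngr1 was 13.4 to 27.8 CPM in controls and 40.2 to 64.9 CPM in depleted livers (log2 fold change 1.13 ± 0.21), and Ifngr2 changed by 0.59 ± 0.16, a call lost without depleted replicate 3 (edgeR adjusted p = 0.120) and in females only (0.206). Socs1, which encodes a feedback inhibitor, changed by 5.84 ± 0.85, Irf8 by 3.52 ± 0.33 and Irf1 by 2.02 ± 0.13. All 4 chemokine genes in the list were higher, among them Cxcl9, with a range of 3.72 to 24.9 CPM in controls and 173 to 488 CPM in depleted livers. Ccl5, also made by cytotoxic lymphocytes, ranged over 0.643 to 1.23 CPM in controls and 22.7 to 54.9 CPM in depleted livers. After hepatectomy edgeR called 0 of these 12 genes, with 2 at an unadjusted p under 0.05 and 1 called by DESeq2. Other interferons also induce several of these genes, and the share of interferon gamma in these levels was not tested.

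The ligands of the effector receptors went different ways. Cxcl16, the ligand of Cxcr6, was 3.87 to 10.6 CPM in controls, 19.9, 22.6, 34.2 and 47.9 CPM in depleted livers in rising order, and changed by 1.80 ± 0.34 (SE; edgeR adjusted p = 0.00146). The cadherin genes Cdh1 and Cdh2, whose products bind Klrg1 and are found in liver epithelium, were lower by log2 fold changes of -1.06 ± 0.23 and -1.32 ± 0.18 (SE). Cdh1 was not called in females only (edgeR adjusted p = 0.0693). Cdh2 was 93.4 to 122 CPM in controls and 29.3 to 47.8 CPM in depleted livers, without overlap. After hepatectomy 0 of the 3 were called by edgeR, 0 at an unadjusted p under 0.05 and 0 by DESeq2.

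Cytokines, receptors and signalling genes that induce the effector programme were called higher in depleted livers for 10 of 11 tested. Il18rap changed by 4.65, Il12b by 4.44 ± 0.88 (SE), Il18r1 by 3.92, Il2rg by 3.76, Stat4 by 3.29 ± 0.48 (SE) and Il2rb by 3.27, while Il15 changed by 0.95 and Il18 by 0.77. The call for Il15 was lost in 4 of 24 alternatives, depleted replicates 1 and 3 left out among them (edgeR adjusted p = 0.0551 and 0.132). Il18r1 was the only one called after hepatectomy, at 2.64 ± 0.54 (SE; edgeR adjusted p = 0.0123), and this call was lost with the replicate number as a block (0.0627) and without hepatectomised replicate 3 (0.138). Of 11 transcription factors that act with or beside T-bet, 6 were higher in depleted livers, led by Eomes, the related T-box factor, at 5.07 ± 0.57, Runx3 at 3.81 ± 0.53 and Prdm1 at 3.27 ± 0.34, and 4 of the 11 were called without depleted replicate 3. Id2, Zeb2, Bhlhe40, Nfil3 and Tcf7 were not called there, and Nfil3 was the one called after hepatectomy, at 1.96, a call lost without hepatectomised replicate 2 (edgeR adjusted p = 0.0568) and in females only (0.289). Eomes (5.07) and Tbx21 (3.47) thus differed in the size of their change, a difference that was not tested. Eomes held 0 to 3 counts per control and 0 to 1 per hepatectomised liver, and Il12b 0 to 8 and 0 to 4. Both were tested through the depleted livers, so for them a difference was favoured in advance. Of 9 homing receptors, 6 were higher, Cd69 by 3.89 and Itgae by 3.71 among them, while Cx3cr1, S1pr5 and Itga1 were not called, and after hepatectomy 0 of 9 were called by edgeR, 1 at an unadjusted p under 0.05 and 0 by DESeq2.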

How the data were processed

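Whole-liver RNA of 13 livers was sequenced from stranded mRNA libraries made from 500 ng of total RNA and run over 2 flowcell lanes, per the labels' protocols. The authors deposited raw read counts per gene in 1 table of 22048 genes, with 0 columns of samples outside the series. STAR 2.7.1a, SAMtools 1.15.1, featureCounts 1.6.4 and the build mm10 are named in the submitters' processing notes. The settings for strand and for reads that map to several places are not given in the sources used here, so reads shared between near-identical genes, such as the granzyme family on chromosome 14, carry an uncertainty. Symbols and GRCm38 coordinates come from GENCODE release M21, in which 21741 gene IDs matched and 307 did not. Exons of 99.9% of the matched IDs overlapped the same gene.

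Counts were tested with the quasi-likelihood test of edgeR 4.0.16 (filterByExpr, trimmed mean of M values, robust glmQLFit) in R 4.3.3, with group and sex over all 13 libraries. Of the genes, 13831 were tested, and p-values were adjusted over them by Benjamini-Hochberg with a threshold of 0.05. Sex in controls was fitted on the 6 controls alone. All tests were two-sided, and SE came from the F statistic. Log2 CPM for likeness had a prior count of 2. A fold against a group at 0 counts used a floor of 3 counts over the group, and ratios with 1 to 3 counts in a group have exact 95% intervals, which cover counting error only. Reads carried no molecular identifiers.

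Groups, sex and replicate numbers came from the labels, which do not say that the libraries of a group came from separate animals. P-values then measure only the spread between these samples, which may be technical. No pair of replicates agreed within sampling noise (the median chi-square of a gene was at least 4.60 in each pair, where a gene needed 50 counts in the pair), so each library was counted once. The labels give no sequencing batch, so a batch that followed the groups cannot be told apart from them.

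The 10 genes and all lists, 10 of pathway genes and 14 of cell markers, were chosen with earlier results of these data known, so a count over a list is a description and not independent evidence. Of all genes tested, 521 passed the filter only with the depleted livers. List genes among them are not marked, and counts of calls in depleted livers favour them. All 10 genes are named in each comparison. From each list, the genes with the smallest p-values, at most 4, and the ligands and receptors of the 10 genes are named with values, besides Cd8a, Cd8b1, Cd4, Ncr1, Klrb1c, Ptprc and the scarce granzymes, which were picked after their values were seen, as were other list genes named as called or not called. For likeness the 3 genes with the highest r were found for each gene. Of the lists' genes, 9 had no row in the table. Alternatives were the scaling, DESeq2 1.42.0, limma-voom (limma 3.58.1), the filter, a fit without sex, fits on fewer libraries, a block on the replicate number and leaving out each library. Some genes of the lists are not reported here by name.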

Additional observations from a re-analysis of the deposited data

Results flagged for a closer look

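Within-group outliers were sought in 27 sets of values with Dixon's test at the 95% level, where chance gives about 1 in 20 (1.35 of 27). There were 4. In Ifng, control replicate 5 was far from the other controls, with a gap of 0.664 of the range, at 0.0702 CPM or 3 counts against 0 to 0.0236 CPM in the others. In Klrg1, depleted replicate 4 stood apart with a gap of 0.902 of the range, at 1.20 CPM or 54 counts against 0.257 to 0.349 CPM. The summed NK and ILC1 genes were low in control replicate 6, with a gap of 0.670, at 8.07 CPM against 24.8 to 33.0 CPM. Fcer1g and Tyrobp, which are also myeloid genes, held most of this sum, at 3.39 CPM each in that liver. In the other controls they were 8.61 to 13.1 and 12.4 to 15.1 CPM, and the sum without them was not tested. The summed pan-leukocyte genes were low in the same liver, with a gap of 0.653, at 128 CPM against 185 to 215 CPM. Without control replicate 6 all 10 effector genes were still called higher in depleted livers.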

How the results depend on the processing

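Of 238 values of the 10 genes for depleted against control livers, all kept their direction and their call over 24 alternatives. The count of genes called stayed at 10 except for 8 under a filter of at least 1 CPM in 3 libraries, which leaves Ifng and Klrg1 untested, and leaving out each library gave 10 to 10. For hepatectomised against control livers the count was 0, 1 with DESeq2 (Cxcr6), and 0 to 0 without each library. For depleted against hepatectomised livers it was 10, 5 in females only, where 1 hepatectomised liver remained and was assumed to vary like the others, and 8 to 10 without each library. In females only, Prf1 (edgeR adjusted p = 0.0503), Ifng (0.122), Fasl (0.0998), Klrg1 (0.245) and Tbx21 (0.0624) were not called, and Klrg1 was not called when only those groups were fitted (0.0645). After hepatectomy, signs turned only for values close to 0 or resting on few counts, none of them called. Fasl was -0.13 with scaling to library size alone and -0.55 with limma-voom, Nkg7 was 0.11 with only those groups fitted and 0.20 in females only, and Gzma was 0.27 in females only. Without each library, Gzma ran from -0.76 to 0.33, Gzmb from -0.92 to 0.0848, Fasl from -4.35 to 0.53 and Nkg7 from -0.57 to 0.24. The count for sex in controls was 0 throughout. Scaling to library size alone moved the median of all genes to 0.08 in depleted livers, -0.24 in hepatectomised livers and 0.27 between them.

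With the replicate number as a block, the counts were 10, 0 and 10 for the 3 comparisons, and Ifng at 0.0873, Fasl at -0.16 and Nkg7 at 0.0128 turned sign for hepatectomised against control livers, with no call of the 10 genes changed. Same-numbered control and hepatectomised livers also share sex, and once sex was removed their deviations correlated at a mean of -0.05 across genes, against 0.12 for same-numbered control and depleted livers with a lowest value of -0.10 and 0.16 for depleted and hepatectomised livers with a lowest of 0.0409 (-0.05 for different numbers), so the numbers were not taken to pair the samples. The fits for Ifng and Klrg1 under the stricter filter, for Gzmk, Ifng, Fasl and Klrg1 with only control and hepatectomised livers, and for Gzmk after hepatectomy in females only and without hepatectomised replicate 2 gave no value. Fewer than 10 counts per liver limit Ifng, Fasl, Klrg1 and Gzmk outside the depleted livers.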
